A study of Homo sapiens with 8 samples.

Results

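The clustered protocadherins are 53 protein-coding genes that lie in 3 head-to-tail arrays on the long arm of chromosome 5, 15 in the alpha, 16 in the beta and 22 in the gamma array. They were taken from the RefSeq gene table of assembly GRCh38.p14 by their symbols (PCDHA, PCDHB or PCDHG with a member number) out of 19970 protein-coding genes, and no measured value entered the choice. The alpha array spans chr5:140786140-141012347 (226.2 kb), the beta array chr5:141051374-141249365 (198.0 kb) and the gamma array chr5:141330514-141512975 (182.5 kb). The 8 peak lists together, merged where peaks overlapped by at least 1 bp, gave 122 regions over these spans of 588244 in the genome.

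Clustered protocadherins are cell-surface adhesion proteins of the cadherin superfamily that are best known from neurons, where each cell uses its own small set of them as an identity tag. Every variable exon of the alpha and gamma arrays has its own promoter and is spliced to a set of constant exons at the end of the array, so that all alpha genes share 1 annotated end and all gamma genes another, while each beta gene encodes a whole protein on its own. Promoter choice is known to involve the insulator protein CTCF, cohesin, DNA methylation of the unused promoters and enhancers downstream of the variable exons. PCDHAC1, PCDHAC2, PCDHGC3, PCDHGC4 and PCDHGC5, the C-type members at the end of the alpha and gamma arrays, are used more uniformly in neurons than the alternate members.

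Chromatin accessibility was measured by ATAC-seq, which reads out where the transposase Tn5 can insert adapters, in 8 bulk libraries of mitotic hTERT RPE-1 cells, a telomerase-immortalised human retinal pigment epithelial line. All cells were Plk1-/- and carried EGFP-Plk1as, an analog-sensitive form of the mitotic kinase Plk1, so that every group had this altered background. All had also been held in prometaphase with 5 µM STLC, a kinesin-5 inhibitor, for 16 h and collected by shake-off. The 4 DMSO libraries then received 0.5% DMSO and the 4 3MB-PP1 libraries 10 µM 3MB-PP1, the purine analog that blocks Plk1as, for 2 h. The question for these genes is whether their accessibility on mitotic chromosomes changed when Plk1 was inhibited, and nothing in the labels says whether the replicates came from separate cultures, so their spread may be technical. In bulk cells, a peak present in few cells and a weak peak present in all of them cannot be told apart.

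The values are peak calls, and the number of reads behind them is unknown. The lists held between 150577 and 252752 peaks on chromosomes 1 to 22 and X, and no pair shared more than 0.0339% of identical peak positions. Libraries with odd and even replicate numbers stood apart in both groups (0.868% to 0.933% against 0.595% to 0.694% of peaks on chromosome X), so differences are also given within each. Of the 6 pigment epithelium markers with a known strand, the starts of MITF and OTX2 were called in all 8 lists, those of the visual-cycle genes LRAT, RLBP1 and RPE65 in 3, 2 and 0 lists, and that of TYR in 1. Of the neuron markers, MAP2 was called in all 8 lists and SYN1 and RBFOX3 in 1 each. PTPRC, a blood marker, was called in none, and KRT8 and VIM, markers of epithelial and mesenchymal cells in culture, in all 8.

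The promoter sequences of the members differed in CpG content. RefSeq promoter entries (GRCh38.p14, 250 bases before to 50 after the start) were matched for 47 of the 53 members. The 250 bases before the start are printed 5′ to 3′ on the plus strand with each CpG in capitals, for the only members whose start was called in all 8 lists (PCDHGC3 and PCDHAC2), for PCDHGC4, a C-type neighbour with no call, and for PCDHA4, an alternate member with a call in all 8 lists about 1.8 kb after its start.
PCDHGC3: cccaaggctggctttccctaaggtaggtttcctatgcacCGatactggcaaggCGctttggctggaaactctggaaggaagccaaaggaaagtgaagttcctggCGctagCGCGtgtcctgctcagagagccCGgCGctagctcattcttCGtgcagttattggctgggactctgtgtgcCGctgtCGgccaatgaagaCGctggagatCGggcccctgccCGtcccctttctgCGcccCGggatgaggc
PCDHAC2: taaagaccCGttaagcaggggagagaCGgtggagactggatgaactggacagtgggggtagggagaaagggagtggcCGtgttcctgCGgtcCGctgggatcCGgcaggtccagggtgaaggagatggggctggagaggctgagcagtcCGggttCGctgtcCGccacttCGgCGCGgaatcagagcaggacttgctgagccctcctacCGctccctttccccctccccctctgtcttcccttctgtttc
PCDHGC4: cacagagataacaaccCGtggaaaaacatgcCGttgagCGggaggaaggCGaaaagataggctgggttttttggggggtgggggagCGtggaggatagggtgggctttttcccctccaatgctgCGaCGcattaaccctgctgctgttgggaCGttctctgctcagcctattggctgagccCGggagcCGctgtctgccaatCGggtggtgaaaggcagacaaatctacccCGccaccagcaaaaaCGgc
PCDHA4: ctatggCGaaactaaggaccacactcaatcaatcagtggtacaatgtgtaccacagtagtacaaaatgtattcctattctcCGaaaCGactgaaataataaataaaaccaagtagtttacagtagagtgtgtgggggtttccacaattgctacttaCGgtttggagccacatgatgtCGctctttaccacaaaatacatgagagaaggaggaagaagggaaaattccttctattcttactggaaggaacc
These stretches lie at chr5:141475716-141475965, chr5:140966226-140966475, chr5:141484780-141485029 and chr5:140806818-140807067, and hold 15, 13, 13 and 5 CpG. PCDHGC4 thus carried as many CpG before its start as PCDHAC2 and had no peak there.

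Over the whole 300 bases, the 47 member promoters held a median of 7 CpG (2 to 27), against 22 over 15811 protein-coding promoters. The 2 members called in all 8 lists held 15 and 18, the 17 with an entry and no start call held a median of 7, and the 28 called in 1 to 7 lists also a median of 7. Across the 47 members, the CpG count and the number of lists that called the start had a Spearman rho of 0.267, given as a description because the promoters share 1 locus and ancestry. The letters CGCT, the core of the conserved promoter element of these genes, were in 46 of the 47 on either strand. They were in 81.0% of all promoters, and PCDHA9 was the member without them. So short a match does not show the whole element. PCDHB1, PCDHGC4 and PCDHAC2, which are described as lacking the element, held the letters 3, 3 and 4 times. The CTCF core letters (AGGGGGC, with A also allowed as the third and T as the fourth letter, on either strand) were in 5 of 47. That is 10.6%, against 35.2% of all promoters. TATAAA was in 6 of 47, or 12.8%, against 9.75%. The median GC content was 39.7% in the member promoters and 62.7% in all promoters, and its part in these counts was not tested. The longest stretch that a member promoter shared with another had a median of 18 bases, and PCDHGB4 and PCDHGB5 shared the longest, 78 bases. How reads that match several of these related genes were placed is not given in the sources used here, and its part in the calls was not tested.

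Most clustered protocadherin starts lacked a peak. A start counted as called in a library when a peak lay within 1 kb of it. PCDHAC2 and PCDHGC3 were called in all 8 lists, 2 of 53 members or 3.77%, whereas 59.1% of the 15817 protein-coding starts with a known strand were. No list called the start of 21 members (39.6%), against 12.8% of all starts. The remaining 30 members were called in 1 to 7 lists, 15 of them in a single list. The starts without any call were PCDHA1, PCDHA2, PCDHA3, PCDHA5 and PCDHA7 to PCDHA13 in the alpha array, PCDHB4, PCDHB6, PCDHB14 and PCDHB15 in the beta array, and PCDHGA2, PCDHGA4, PCDHGA10, PCDHGA12, PCDHGB4 and PCDHGC4 in the gamma array. The alpha array therefore had 11 of 15 uncalled starts, the beta array 4 of 16 and the gamma array 6 of 22. A start without a call can still have signal under the threshold of its list.

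**Figure D1:**
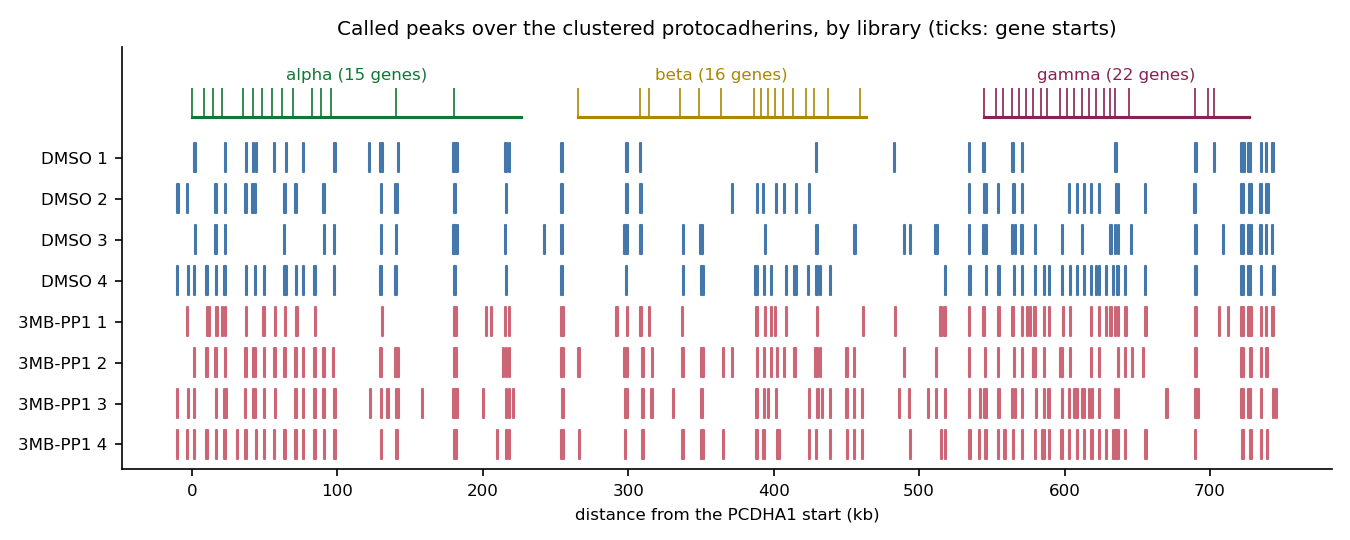
Called peaks in each library (rows) along the 3 arrays, as distance from the PCDHA1 start in kb. Bars are peaks, drawn at least 0.8 kb wide, in blue for DMSO and red for 3MB-PP1, and ticks mark member starts. The 3MB-PP1 rows hold 57 to 74 peaks within the 3 spans and the DMSO rows 29 to 56.

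The number of member starts with a peak was 8, 11, 10 and 8 in DMSO replicates 1 to 4 and 12, 11, 14 and 10 in 3MB-PP1 replicates 1 to 4. The groups overlapped at 10 and 11, and the means were 9.25 ± 1.5 (SD, n = 4) and 11.8 ± 1.71 (SD, n = 4). The difference of 2.5 starts was 4 in odd and 1 in even replicates, and its direction turned when only peaks of at least 300 bp were counted (-1.25). Over all protein-coding genes, 70.1% to 77.1% of starts had a peak in a library. No member was called in 4 of 4 lists of a treatment and 0 of 4 of the other, which 0.0379% of all starts did in favour of DMSO and 0.101% in favour of 3MB-PP1.

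PCDHGC3, the C-type gamma gene that is widely transcribed outside the nervous system, had the strongest start of the 53. Peaks covered 1458, 1292, 1432 and 1285 bp of the 2 kb around its start in the DMSO libraries and 1253, 1141, 1284 and 1045 bp in the 3MB-PP1 libraries. All 4 DMSO values lay above all 4 3MB-PP1 values, by as little as 1 bp between DMSO replicate 4 and 3MB-PP1 replicate 3. The means were 1367 ± 91.0 bp and 1181 ± 109.4 bp (SD, n = 4 each), a difference of -186 bp (-176.5 in odd and -195.5 in even replicates). Permuting the treatment labels in all 70 ways (exact permutation, two-sided) gave p = 0.0286, which is as low as this design can go, and the Benjamini-Hochberg adjusted p over all starts was 0.348. The groups no longer separated with windows of 250 bp or 2.5 kb.

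PCDHGC3 was the 1 member of 53 (1.89%) whose start was less covered with 3MB-PP1 without overlap of the groups, and no member was more covered. Of all protein-coding starts, 7.81% were less covered in this way and 0.392% more covered, and among starts called in all 8 lists 12.5% and 0.139%. PCDHGC3 thus stood among 1164 of 9347 always-called starts with this pattern. No start of any gene reached an adjusted p of 0.05 (1297 of 15817 had an unadjusted p of 0.05 or less by the exact permutation test). The PCDHGC3 peak ranked between the 92.7 and 96.3 percentile of its own list by the authors' -log10 p in every library, so its rank was high in both treatments.

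PCDHAC2, the last alpha gene, was covered over 669, 1214, 1413 and 1115 bp of the same window with DMSO and over 600, 1176, 1459 and 746 bp with 3MB-PP1. The groups overlapped throughout, with replicate 1 the lowest in each, and the exact permutation p was 0.743 (adjusted 1.0). PCDHAC1, the other alpha C-type gene, had 0, 633, 401 and 1210 bp with DMSO and 0, 1133, 839 and 964 bp with 3MB-PP1. Both replicate 1 libraries lacked a call there, and the difference of 173 bp was well inside SDs of 505.5 and 503.9 bp. The C-type gamma genes downstream of PCDHGC3 differed from it, since PCDHGC4 had no call and PCDHGC5 a call in DMSO replicate 1 alone.

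**Figure D2:**
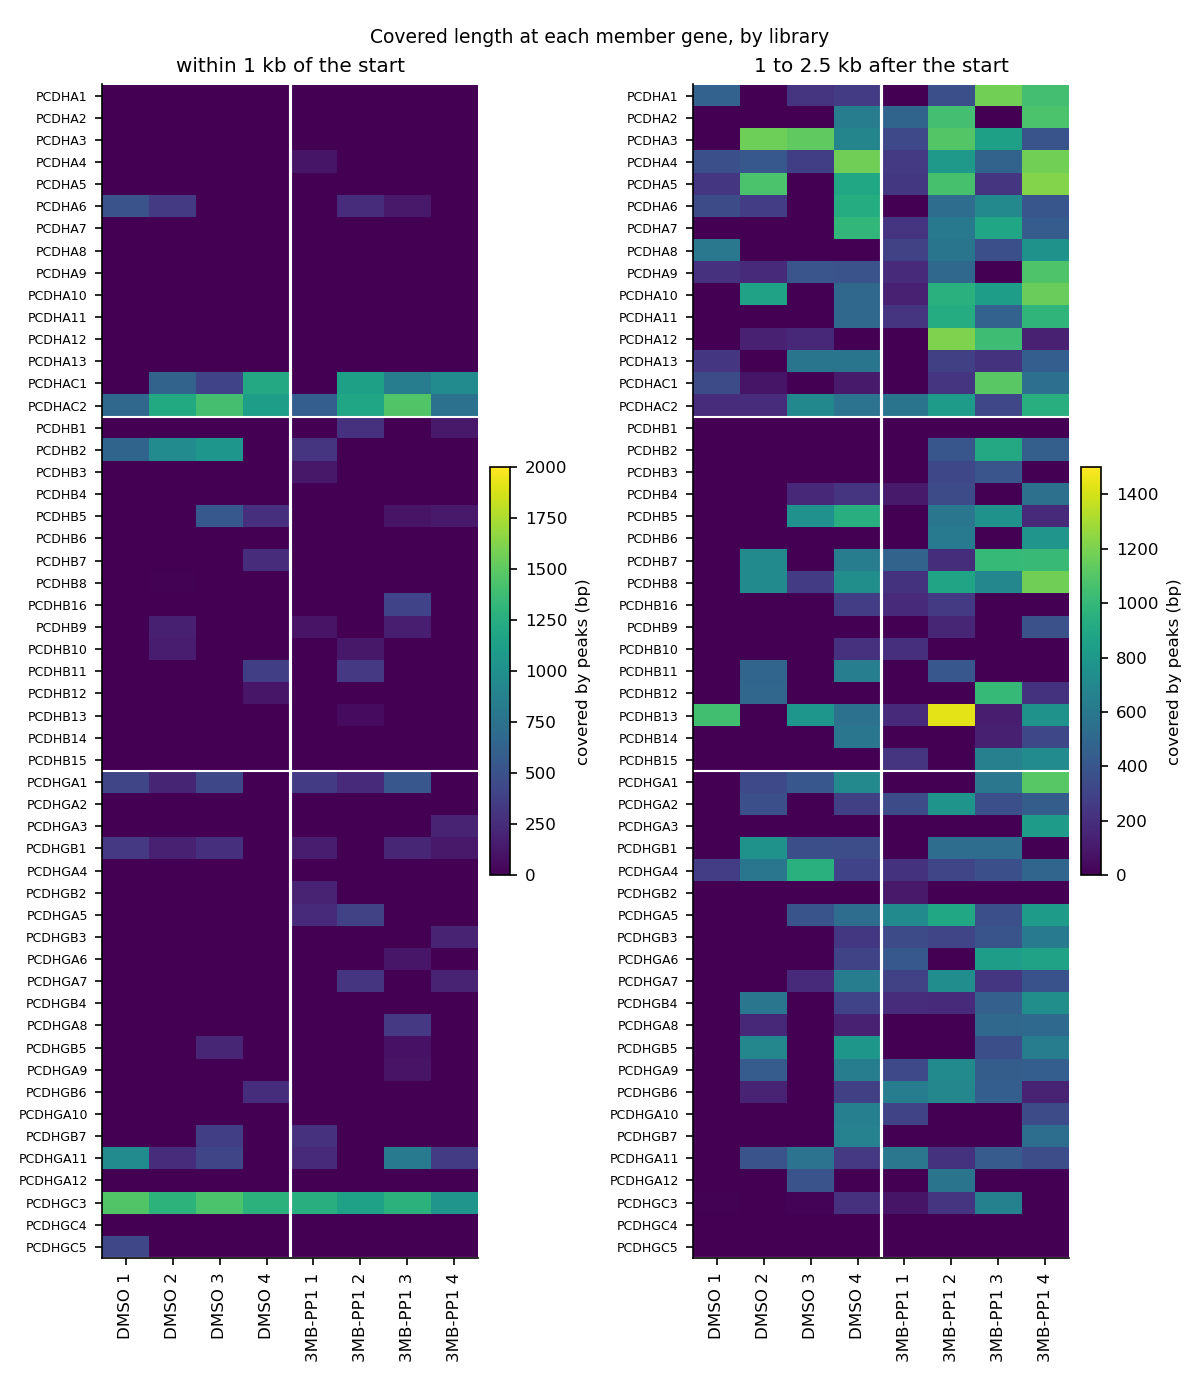
Base pairs covered by peaks at each of the 53 members (rows, in chromosomal order within each array) in each library (columns, DMSO left and 3MB-PP1 right of the white line), within 1 kb of the start (left) and 1 to 2.5 kb after it (right). PCDHGC3 and PCDHAC2 are the rows covered in all 8 libraries on the left, and most rows are covered in some library on the right.

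Among the alternate alpha members only PCDHA6 and PCDHA4 had any start call. PCDHA6 was covered over 514, 340, 0 and 0 bp with DMSO and over 0, 257, 134 and 0 bp with 3MB-PP1, so that 2 libraries of each group had a peak. PCDHA4 was called at its start in a single 3MB-PP1 library.

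In the beta array the start of PCDHB2 showed the widest gap between treatments of any member. It was covered over 646, 967, 1051 and 0 bp with DMSO and over 311, 0, 0 and 0 bp with 3MB-PP1. The 3 DMSO libraries with a peak exceeded every 3MB-PP1 library, but DMSO replicate 4 had none. The means of 666 ± 477.1 and 77.8 ± 155.5 bp (SD, n = 4 each) differed by -588 bp with an exact permutation p of 0.143 and an adjusted p of 0.55. PCDHB5 was called in 2 libraries of each group, PCDHB9 in 1 DMSO and 2 3MB-PP1 libraries and PCDHB1 in 2 3MB-PP1 libraries, with exact permutation p-values of 0.429, 1.0 and 0.429.

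In the gamma array, PCDHGA1, PCDHGB1 and PCDHGA11 were each called in 6 lists, 3 per treatment. PCDHGB1 was covered over 332, 183, 274 and 0 bp with DMSO and 156, 0, 217 and 137 bp with 3MB-PP1, with widely overlapping groups. DMSO replicate 4 was without a call at all 3 of these starts. PCDHGA5 (238, 394, 0 and 0 bp) and PCDHGA7 (means of 0 and 123.75 bp) were called in 2 3MB-PP1 libraries each and in no DMSO library, with an exact permutation p of 0.429 for both.

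Most calls at these genes lay further in. Coverage was highest not at the start but about 2 kb after it, in all 3 arrays and both treatments. The highest 250 bp bin was centred 2125 bp after the start, except in the gamma array with DMSO, where it was centred at 1875 bp. Regions present in at least 3 lists and centred 1 to 2.5 kb after the nearest upstream start were found at 14 alpha starts (median distance 1859 bp), 11 beta starts (1910 bp) and 15 gamma starts (1984 bp). The middle 50% of these distances lay between 1836 and 1918 bp in the alpha, 1781 and 1944 bp in the beta and 1877 and 2019 bp in the gamma array, while neighbouring starts were a median of 7057, 9092 and 4973 bp apart. All 11 such beta regions ended before the annotated end of their gene. This window was chosen after the coverage around the starts had been seen, so its values are a description.

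**Figure D3:**
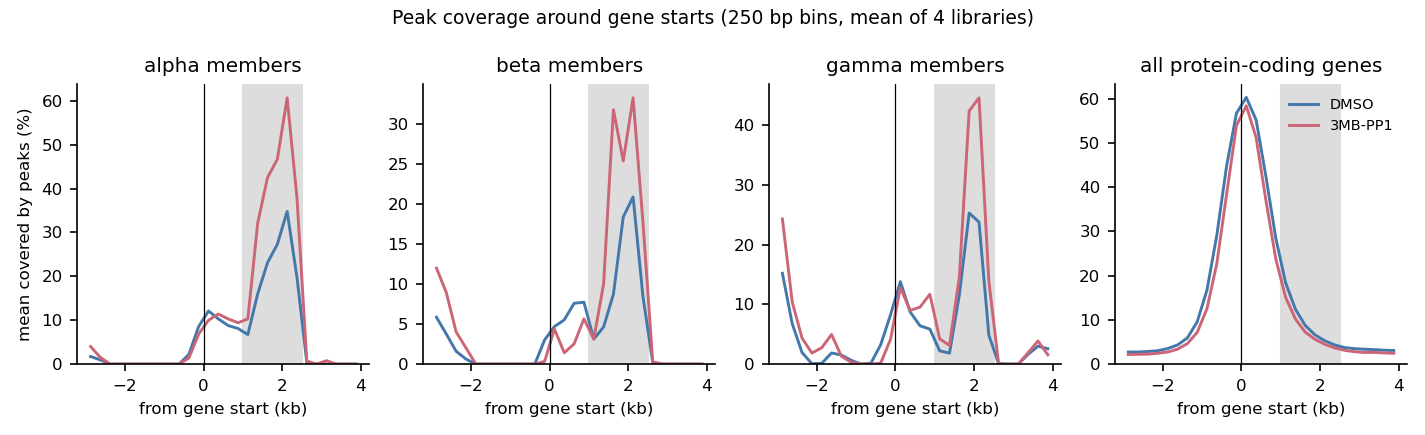
Mean share of each 250 bp bin covered by peaks against distance from the gene start in kb, for the members of each array and for all protein-coding genes (blue, mean of 4 DMSO libraries, and red, mean of 4 3MB-PP1 libraries, with a separate vertical scale per panel). Grey marks 1 to 2.5 kb after the start: the members peak there, and all genes peak at the start.

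A peak reached into the window 1 to 2.5 kb after the start in at least 1 list for 50 of 53 members, or 94.3%, against 52.7% of all protein-coding genes. PCDHB1, PCDHGC4 and PCDHGC5 were the 3 without. As background, these 3 and PCDHAC2 are the members described as lacking the conserved promoter element, and PCDHAC2 did have a peak in this window, in all 8 lists. PCDHA4, PCDHAC2 and PCDHGA4 were called there in all 8 lists, 5.66% of members against 13.3% of all genes. The calls were thus widespread over members but unsteady over libraries.

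Averaged over libraries, peaks covered 21.2 ± 10.5% of this window with DMSO and 38.4 ± 17.8% with 3MB-PP1 in the alpha array (SD, n = 4 each). The means were 10.7 ± 6.73% and 20.2 ± 9.25% in the beta array, and 11.6 ± 8.79% and 20.5 ± 5.95% in the gamma array. The groups overlapped in each array. In the alpha array, 3MB-PP1 replicate 1 (13.1%) was the lowest library and DMSO replicate 4 reached 36.6%. Over all protein-coding genes the mean coverage was 9.27% with DMSO and 7.7% with 3MB-PP1. In the next 1 kb (2.5 to 3.5 kb after the start) coverage of the members was 0.0469% to 0.483%, and 1 to 2.5 kb before the start it was 0 to 2.58%. The 10 non-clustered protocadherins with a known strand, which are cadherin-family genes scattered over the genome, had 1.27% and 4.8% in the window after the start. Of the 3 with a start call in all 8 lists, PCDH1 and PCDH9 had no call in the window after it. The other, PCDH18, had a call there in at least 1 list.

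These peaks were weak by the authors' own values. Their median -log10 q was 1.7, and with PCDHGC3 left out, where the start peak itself extends into the window, the highest was 3.53. The largest q in any list was 0.1. Only the 4 DMSO lists and 3MB-PP1 replicate 1 held a member start peak with a -log10 q of at least 5, and that peak was PCDHGC3. Within their own lists the peaks after the starts ranked in the middle, with medians from the 33.9 percentile in DMSO replicate 3 to the 71.4 percentile in 3MB-PP1 replicate 3.

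More members had a peak after the start in the 3MB-PP1 libraries. The counts were 12, 23, 19 and 39 of 53 in DMSO replicates 1 to 4 and 30, 38, 37 and 42 in 3MB-PP1 replicates 1 to 4. DMSO replicate 4 lay within the 3MB-PP1 range, and the other 3 DMSO libraries lay below it. The means were 23.2 ± 11.4 and 36.8 ± 4.99 members (SD, n = 4 each), a difference of 13.5 members, of 18 in odd and 9 in even replicates, and of 18.8 without DMSO replicate 4. The lists differ in length, and with all of them reduced to their 150577 highest-ranked peaks the difference was 10.8 members. With only peaks of a -log10 q of at least 5 the difference was -0.5 members. PCDHGC3 alone had a peak that strong in this window (highest of the other members, 3.53). That value therefore cannot show how the other members differ. Among all protein-coding genes the share with a peak in this window was 28.3% to 32.7% with DMSO and 24.2% to 30.6% with 3MB-PP1, as the plot of members and genes by library shows.

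**Figure D4:**
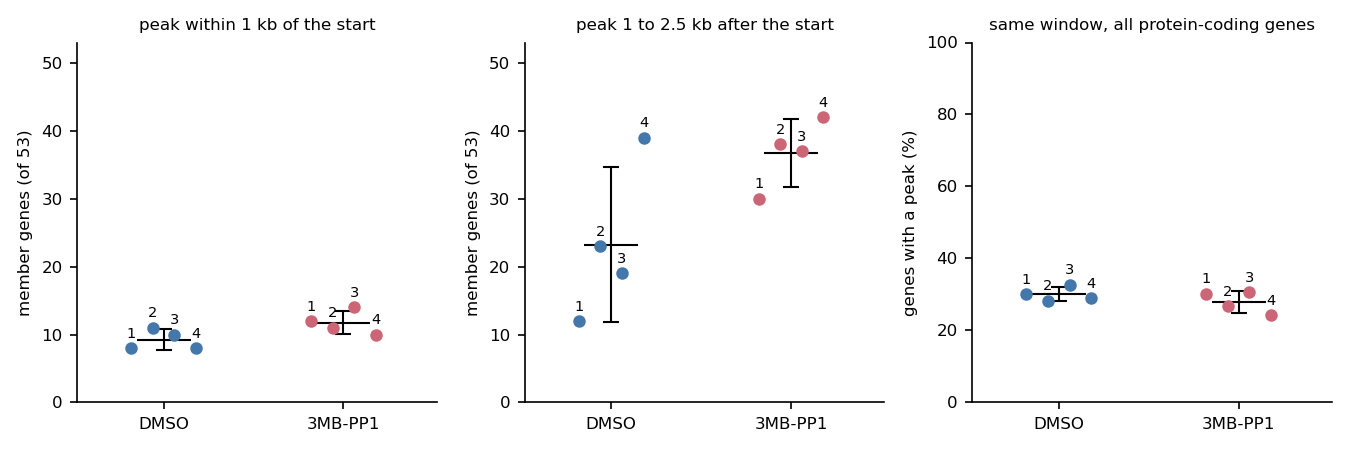
Number of the 53 members with a peak within 1 kb of the start (left) and 1 to 2.5 kb after it (middle), and percent of all protein-coding genes with a peak in the latter window (right), per library. Points are libraries with their replicate number, and lines are the mean ± SD of 4. In the middle panel 3 DMSO libraries (12 to 23 members) lie below all 3MB-PP1 libraries (30 to 42) and DMSO replicate 4 (39) among them.

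Member by member, mean covered length in this window was higher with 3MB-PP1 in 40 of 53 (75.5%) and lower in 10 (18.9%), with 3 never covered. Over all genes it was higher in 19.2% and lower in 33.2%, and 7481 of 15817 were never covered. These shares thus also reflect how often the window is covered at all. By array, mean covered length was higher in 13 of 15 alpha, 11 of 16 beta and 16 of 22 gamma members. The difference in the number of members with a peak was 3.5 in odd and 4 in even replicates in the alpha array. It was 5.5 and 4.5 in the beta array, but 9 and 0.5 in the gamma array. DMSO replicate 4 had 17 gamma members with a peak, more than any 3MB-PP1 library (12 to 16). A peak was called in more 3MB-PP1 than DMSO lists at 33 members and in fewer at 4, against 13.7% and 18.3% of all genes. No member was called there in 4 of 4 lists of a treatment and 0 of 4 of the other, which 0.0253% of all genes did in favour of 3MB-PP1 and 0.247% in favour of DMSO. The members share the same 8 libraries and are not replicates of the treatment.

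PCDHGB3 alone had groups that did not overlap in this window (1 of 53, against 0.145% of all genes in this direction). It is named here because of that value. No member was lower without overlap, against 1.79% of all genes. That pattern needs a peak in all 4 DMSO lists, which only PCDHA4, PCDHA9, PCDHAC2 and PCDHGA4 had. The other members could therefore not show it. PCDHGB3 was covered over 0, 0, 0 and 243 bp with DMSO and over 351, 313, 391 and 618 bp with 3MB-PP1. The lowest 3MB-PP1 library lay 70 bp above the highest DMSO library. The means of 60.8 ± 122 and 418 ± 137 bp (SD, n = 4 each) gave an exact permutation p of 0.0286 and an adjusted p of 1.0. When the lists were reduced to equal length the groups overlapped, and without DMSO replicate 4 the members with separate groups were 4 (PCDHGB3, PCDHA7, PCDHA11 and PCDHGA7).

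**Figure D5:**
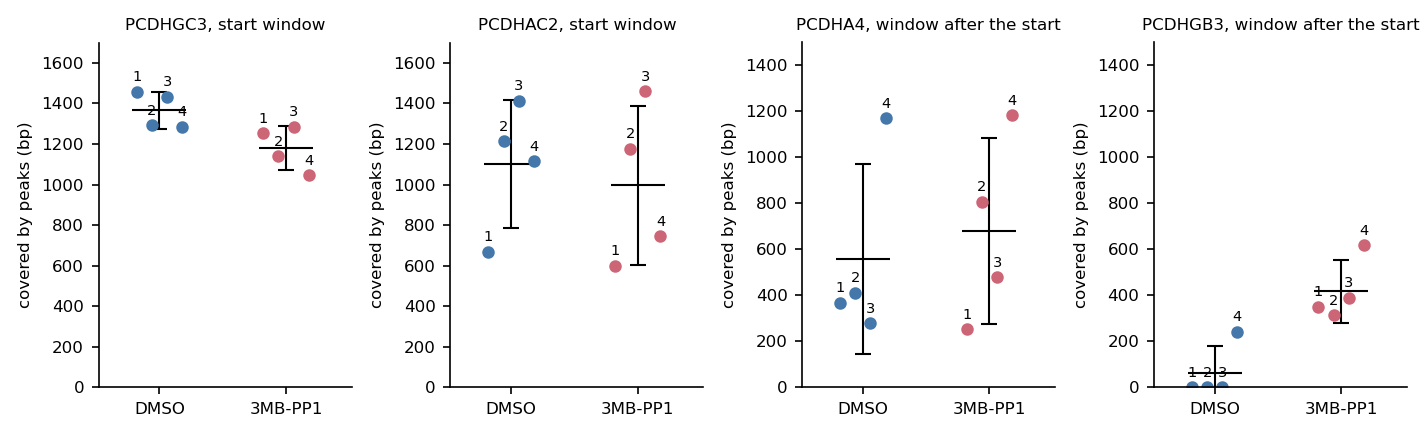
Base pairs covered by peaks in each library at the starts of PCDHGC3 and PCDHAC2 (left pair, within 1 kb of the start) and in the window 1 to 2.5 kb after the starts of PCDHA4 and PCDHGB3 (right pair). Points are libraries with their replicate number, and lines are the mean ± SD of 4. The groups are separate for PCDHGC3 and PCDHGB3 and overlap for PCDHAC2 and PCDHA4.

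The members called after the start in all 8 lists had overlapping groups. PCDHA4 was covered over 369, 412, 280 and 1172 bp with DMSO and 252, 808, 480 and 1183 bp with 3MB-PP1. Replicate 4 was the highest in each group and the groups overlapped (exact permutation p = 0.686). PCDHGA4 was covered over 271, 589, 951 and 300 bp with DMSO and 219, 315, 364 and 487 bp with 3MB-PP1, again with overlap (exact permutation p = 0.371). PCDHAC2 had 189, 189, 703 and 572 bp with DMSO and 578, 829, 321 and 943 bp with 3MB-PP1. In some libraries its start peak reached into this window and in others, such as replicate 1 of both treatments, the window held a separate peak. PCDHB13 held the single widest value of any member, 1441 bp of the 1500 in 3MB-PP1 replicate 2, beside 0 bp in DMSO replicate 2. PCDHB2 and PCDHB15 were called only in 3MB-PP1 lists, 3 each, with means of 440 and 400 bp and an exact permutation p of 0.143 for both. PCDHB2 was thus covered at its start mainly with DMSO and after its start with 3MB-PP1 alone.

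Of the 122 merged regions over the arrays, 45 (36.9%) were called in a single list, against 51.9% of all merged regions. Regions called in all 8 lists numbered 8, or 6.56% against 6.23% of all merged regions, 4 in the alpha and 4 in the gamma array and none in the beta array. The highest ranked was the PCDHGC3 start (chr5:141475435-141477200, mean percentile 94.9). The second (chr5:141507485-141509956, mean percentile 92.7) lay 19640 bp after the PCDHGC5 start, towards the shared constant end of the gamma genes, and was covered over 2394, 2060, 2376 and 1994 bp with DMSO and 1991, 1985, 2042 and 1845 bp with 3MB-PP1. The groups overlapped there because DMSO replicate 4 lay below 3MB-PP1 replicate 3. The third (chr5:141512309-141514933, mean percentile 83.5) crossed the shared gamma end, which lies 2046 bp before the lowest annotated coordinate of DIAPH1, an actin-nucleating formin gene. It was covered over 2173, 1687, 1379 and 1567 bp with DMSO and 1395, 135, 987 and 946 bp with 3MB-PP1, and only DMSO replicate 3 against 3MB-PP1 replicate 1 kept the groups from separating.

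The other regions called in all 8 lists were the PCDHAC2 start (chr5:140966018-140968419, mean percentile 73.8), the PCDHGA4 and PCDHA4 regions after the start (64.6 and 60.1), and 2 alpha regions away from any start. The latter lay 35734 bp after the PCDHAC2 start (chr5:141001489-141002931, 55.9) and 34351 bp after the PCDHA13 start (chr5:140915725-140917225, 54.4). No region over the arrays was called in 4 of 4 lists of a treatment and 0 of 4 of the other (0.120% of all regions for DMSO and 0.148% for 3MB-PP1). Covered length was higher with 3MB-PP1 without overlap in 1 region, the PCDHGB3 region chr5:141371709-141372474 (0.332% of all regions), and lower in none (1.27%).

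Between the arrays, outside the spans, 2 regions chosen after their values were seen were called in all 8 lists. A region between the alpha and beta arrays (chr5:141039814-141041360, mean percentile 86.3) lay 27467 bp after the alpha end and 10014 bp before PCDHB1, in the stretch downstream of the alpha constant exons where enhancers of the alpha genes are known. It was covered over 1547, 774, 816 and 762 bp with DMSO and over 620, 584, 340 and 351 bp with 3MB-PP1. All DMSO values exceeded all 3MB-PP1 values, with means of 975 ± 382 and 474 ± 149 bp (SD, n = 4 each), a direction opposite to that of most windows after the starts. It was the only one of the 16 regions between the arrays with this pattern, which 1.27% of all merged regions showed, and over the genome 7456 regions were lower and 1951 higher without overlap. The other, at the start of TAF7, a general transcription factor subunit gene between the beta and gamma arrays, overlapped between groups (1041 ± 114 and 918 ± 148 bp).

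Gene ends differed between the arrays. The shared alpha end had no call within 1 kb in any list, and the shared gamma end was called in all 8. Of the 16 beta ends 5 were called in at least 1 list and none in all 8. Beta genes are short (median 3846.5 bp), and the calls at the PCDHB5, PCDHB6, PCDHB8 and PCDHB10 ends came from peaks in the window after the start. At PCDHB6 and PCDHB10 these reached only 27 and 18 bp into the end window. Only the PCDHB13 end had separate peaks. The share over all protein-coding gene ends was not computed. The pseudogene relics in the arrays also carried calls, PCDHA14 and PCDHGB9P in 5 lists each, PCDHB19P and PCDHGB8P in 4, PCDHB18P in 3 and PCDHB17P in 2.

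Over whole arrays, peaks covered 3.20%, 3.59%, 2.96% and 5.81% of the alpha span with DMSO and 2.67%, 7.09%, 6.23% and 7.12% with 3MB-PP1. The beta span had 1.72% to 3.44% and 1.39% to 5.11%, and the gamma span 3.70% to 6.53% and 5.82% to 7.66%. The means with 3MB-PP1 were higher by 1.89, 1.12 and 1.60 percentage points in the alpha, beta and gamma spans, but the groups overlapped in each, and 3MB-PP1 replicate 1 was the lowest library of all 8 in the alpha and beta spans. With only peaks of a -log10 q of at least 5 the differences were 0, 0 and -1.61 percentage points, so that the direction turned in the gamma span. Over the genome the covered share was 3.24% ± 0.409 with DMSO and 2.87% ± 0.319 with 3MB-PP1 (SD, n = 4 each), and over chromosome 5 it was 2.65% and 2.34%. The difference was -0.346 and -0.402 percentage points in odd and even replicates over the genome, against 1.37 and 2.40 in the alpha, 0.647 and 1.59 in the beta and 2.03 and 1.16 in the gamma span.

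The number of peaks over the arrays was 29, 37, 36 and 56 with DMSO and 57, 65, 74 and 64 with 3MB-PP1, without overlap. The lists also differed in length, and per 10000 peaks of the list the arrays held 1.93, 2.34, 1.82 and 2.81 peaks with DMSO and 2.67, 3.19, 2.93 and 3.75 with 3MB-PP1, where DMSO replicate 4 fell inside the 3MB-PP1 range. The median width of these peaks was 449 ± 43.3 bp with DMSO and 383 ± 99.5 bp with 3MB-PP1 (SD, n = 4 each), beside 390 ± 25.2 and 291 ± 24.9 bp for all peaks. Narrower peaks with 3MB-PP1 were therefore a feature of the whole lists, and the difference within the arrays (-66.4 bp) was smaller than the SD of the 3MB-PP1 libraries.

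Genes that act on these arrays, and their neighbours, were called far more steadily than the members. Of 19 genes for chromosome architecture and silencing with a known strand, 18 had a start call in all 8 lists, against 59.1% of all protein-coding starts, among them CTCF, SMC3, WAPL and the silencing factors SMCHD1 and SETDB1, and WIZ was called in 5. Only NIPBL, the cohesin loader, was less covered with 3MB-PP1 without overlap (1964.5 ± 47.6 against 1876 ± 29.5 bp, SD, n = 4 each). Of 16 other genes near the arrays, 12 were called in all 8 lists. The 12 are not all separate loci, since NDUFA2 and IK had identical coverage in every library. HARS1 and HARS2 had similar coverage, as did HDAC3 and RELL2. DIAPH1 and SLC35A4 were less covered with 3MB-PP1 without overlap, with means that differed by -473.75 and -303.5 bp. These counts, 1 of 19 and 2 of 16, stand beside the 7.81% of all starts, and 12.5% of always-called starts, that were lower without overlap. Of the 10 non-clustered protocadherins, PCDH1, PCDH9 and PCDH18 were called in all 8, PCDH11X, PCDH15, PCDH17 and PCDH19 in none, and none differed without overlap. The median start difference was 0 bp over the clustered and non-clustered protocadherins, -71 bp over the architecture genes, -191.25 bp over the neighbours and -58 bp over all protein-coding genes. A start without a call in any list has a difference of 0 bp. That held for 21 of 53 clustered and 4 of 10 non-clustered protocadherins, so their medians cannot show whether the called starts changed.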

How the data were processed

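The 8 deposited lists hold 1 library's peaks each, so peaks had been called per library. The submitters' processing notes name MACS2, DESeq2 and hg38, with no role, and the aligner, duplicate removal, read shift for Tn5 and treatment of multiply matching reads are not given in the sources used here. From their values, the deposited columns are position, length, pileup (a signal of fragment coverage), -log10 p, fold enrichment (a ratio to background) and -log10 q. All are the authors' values and served only within their own list. A lower threshold or broader peaks upstream would change how many starts are called and how much is covered, and no read depth is known.

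Members, gene lists, tests and most alternatives were chosen with earlier results of these data known. Groups came from the sample titles. The start was the strand-given end of a gene (RefSeq, GRCh38.p14, the assembly of hg38). Strand came from the promoter table, which has 15811 protein-coding genes, and 6 members without an entry took the plus strand of their array, while 4153 other protein-coding genes had no strand and were left out. Per library, the base pairs of a window that peaks cover were counted, and percentiles rank peaks within a list by -log10 p. Each start was tested by an exact two-sided permutation test over 70 assignments, Benjamini-Hochberg adjusted over 15817 genes, and groups that do not overlap were counted against the share of all genes that do so. Named genes were, per array, the 2 with the highest mean percentile, the 3 with the largest treatment difference and any with groups apart or called in 4 of 4 lists of 1 treatment and 0 of 4 of the other, plus regions called in all 8 lists (the 5 highest ranked). Other members described here fell outside this rule and were picked after seeing the data. Among them were PCDHA4, PCDHGA1, PCDHGA4, PCDHGA11, PCDHB13, PCDHB15 and PCDHGC4. The lower-ranked regions called in all 8 lists are given as well. The window 1 to 2.5 kb after the start and its results were added after seeing the data. Alternatives were a -log10 q of at least 5, lists of equal length, peaks of at least 300 bp, other windows, either gene end, odd or even replicates, each library left out and the replicate number as a block.

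Computations ran in Python 3.11.15 with scipy 1.17.1, pandas 2.3.3, numpy 2.4.6 and, for plots, matplotlib 3.10.9. Overlap counts and covered lengths matched those of bedtools 2.31.1 with 0 differences. The calls of groups that do not overlap were tested on simulated data. Shifts planted at well-covered starts of low spread were called in 99% of cases in either direction, and 2.62% of unplanted starts were called. The planted shifts were several times the SD of their start, so that almost all had to be called. The 99% does not show how often smaller shifts would be called. Most member windows are less covered than those starts, so the simulation does not show how often shifts there would be called. A reference genome was not used here, so sequences of the peaks were not examined.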

Additional observations from a re-analysis of the deposited data

Results flagged for a closer look

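At the region after the PCDHA4 start (chr5:140808289-140809499), DMSO replicate 4 was covered over 1172 bp and the other DMSO libraries over 280 to 412 bp. The gap to the nearest library was 0.852 of the group's range, above Dixon's 95% critical value for 4 libraries. It was the only such value among 32 groups examined, and chance gives about 1 in 20. DMSO replicate 4 also had the most members with a peak after the start among the DMSO libraries (39 of 53), and 3MB-PP1 replicate 4 had a similar coverage of the PCDHA4 region (1183 bp). The part of that library in the result was not tested.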

How the results depend on the processing

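With only peaks of a -log10 q of at least 5, the difference was -0.75 member starts and -0.5 members with a peak after the start. It was 0 percentage points in the alpha span and -1.61 in the gamma span. At that threshold 0 members were called at the start in all 8 lists and 0 were higher after the start. Among the member starts and the windows after them, only PCDHGC3 held a peak that strong. These member counts thus describe PCDHGC3 and cannot show how the other members differ. The median width could not be given there for every library. Start calls differed by -1.25 with peaks of at least 300 bp, 0.25 with a window of 250 bp and 13.8 with one of 2.5 kb, which takes in the peaks after the starts. Members called in all lists numbered 5 in odd replicates, 7 with 2.5 kb and 23 with either gene end, where the 22 gamma genes share 1 called end. Starts lower without overlap numbered 3 in odd replicates and 0 with 250 bp, 2.5 kb or either end, and higher ones 1 in odd replicates, 2 in even replicates and 2 with 2.5 kb. After the start, members higher without overlap numbered 0 with lists of equal length, 13 in odd and 18 in even replicates, and lower ones 3 and 2, since 2 against 2 libraries separate easily. The cause of the other changes was not tested.

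Leaving out each library gave 1.75 to 3.08 starts, 1.44 to 2.92, 0.671 to 1.91 and 1.14 to 2.08 percentage points in the alpha, beta and gamma spans, -104 to -24.1 bp in median width, 2 members in all lists, 1 to 2 starts lower (2 without DMSO replicate 4, adding PCDHB2) and 0 higher, 9.75 to 18.8 members with a peak after the start, and 1 to 4 higher and 0 lower there. Same-numbered libraries correlated at 0.162, 0.0488, 0.0726 and 0.16 (Pearson, deviations across genes). DMSO replicates 1, 2 and 4 correlated best with the 3MB-PP1 library of their own number. DMSO replicate 3 correlated best with 3MB-PP1 replicate 1 (0.102), so the labels' numbers were not taken as pairs. With the replicate number as a block, 1 start was lower and 0 higher, 5 members were higher and 0 lower after the start, and the mean differences did not move (2.5 starts, 13.5 members with a peak after the start).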
